A study of Homo sapiens with 204 samples.

Results

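The knockdown of RPS16 in A549 cells was compared with control transfections by RNA-seq and ribosome profiling (Ribo-seq), which sequences the short mRNA pieces protected by translating ribosomes. The RPS16 libraries were found by name in the count tables of both assays: 2 RNA-seq and 2 Ribo-seq libraries, 4 of 204 in all. A549 is a line of human lung adenocarcinoma cells, and each library pair came from a single lysate divided between the assays. The RPS16 lysates (n = 2) were made after 24 h with siRNA directed at RPS16 at 40 nM. The controls (n = 11 lysates) received non-targeting siRNA at the same dose and for the same time, and 89 other lysates received siRNA against 1 of 74 other ribosomal protein genes. All cells in all groups were transfected with a lipid reagent and briefly exposed to cycloheximide, which arrests elongating ribosomes, before lysis. The series' design text calls repeated knockdowns biological replicates, and it counts the 11 control lysates as 8 control samples, 3 of them made in duplicate, whereas here each lysate counted as 1 replicate. The labels do not give the sequence or the number of the siRNAs per gene, so the loss of RPS16 and any other action of the same siRNA cannot be told apart.

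RPS16 (uS9 in the universal nomenclature) is a protein of the head of the small, 40S ribosomal subunit, and its C-terminal tail reaches the site where peptidyl-tRNA sits. Cells make 40S and 60S subunits in the nucleolus from ribosomal RNA, ribosomal proteins and many assembly factors, and most ribosomal proteins are needed for their subunit to mature. Surplus 5S RNP, a particle of 5S RNA with RPL5 and RPL11, binds the ubiquitin ligase MDM2 and inhibits it. The mRNAs of ribosomal proteins and elongation factors begin with a run of pyrimidines, the TOP motif, through which LARP1 and mTORC1 control their translation as a group.

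Total counts, in units of 1000000, were 19.2 and 34.4 in the RPS16 RNA-seq libraries and 19.1 to 42.5 in the controls. In Ribo-seq they were 21.1 and 30.0 against 15.1 to 42.6. Control 20_2 stood apart in RNA-seq: the SD of its log2 ratio to the control mean over genes was 1.06, against 0.160 to 0.501 in the other 10 controls and 0.424 and 0.460 in the RPS16 libraries. In Ribo-seq the same measure was 0.551 and 0.479 in RPS16 libraries 1 and 2 and 0.216 to 0.458 in the controls. Footprint library 1 also had no read at all in 2 of 10017 well-expressed genes, ARHGAP42 and FAM81A, whereas library 2 and all controls had none such. The 2 RPS16 columns lie in different stretches of the files' column order, which the labels do not call a batch: library 1 stands in a stretch with 5 controls, library 2 in one with 2, and the other 4 controls stand in a stretch without RPS16. All 9 defining A549 and lung epithelial markers exceeded 1 CPM (counts per 1000000 counts of a library), with summed levels of 10725 and 9930 CPM in the RPS16 libraries and 7921 to 12883 CPM in the controls. Of the fibroblast markers 1 of 7 exceeded 1 CPM and 2 were at 0 in all 13 libraries (summed levels 27.1 and 21.5 CPM against 10.8 to 25.8 CPM). Of the blood cell markers 1 of 8 exceeded 1 CPM (1.82 and 1.40 CPM in sum against 0.750 to 3.77 CPM), and none of the 5 endothelial markers did (0.208 and 0.378 CPM in sum against 0.0469 to 0.546 CPM).

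RPS16 itself was at 50.0 and 48.6 CPM of mRNA in the knockdown lysates, against 1204, 1406 and 2491 CPM (lowest, median, highest) in the 11 controls. The groups lay far apart, and 3.39% and 3.30% of the mean control mRNA level remained (log2 fold change -4.90 ± 0.235 SE, adjusted p = 1.29e-15). Its footprints stood at 61.2 and 69.6 CPM against 1592, 1857 and 2393 CPM, so 3.21% and 3.65% were left (log2 fold change -4.87 ± 0.157, adjusted p = 1.39e-21). The target was thus reduced to a like degree in both lysates and both assays, and its footprint to mRNA ratio had a log2 change of 0.01 ± 0.178 (adjusted p = 0.991). In the 89 lysates in which another ribosomal protein was targeted, RPS16 mRNA stayed between 944 and 1705 CPM. The gene lies at chr19:39433137-39435949 in GRCh38.p14.

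**Figure D1:**
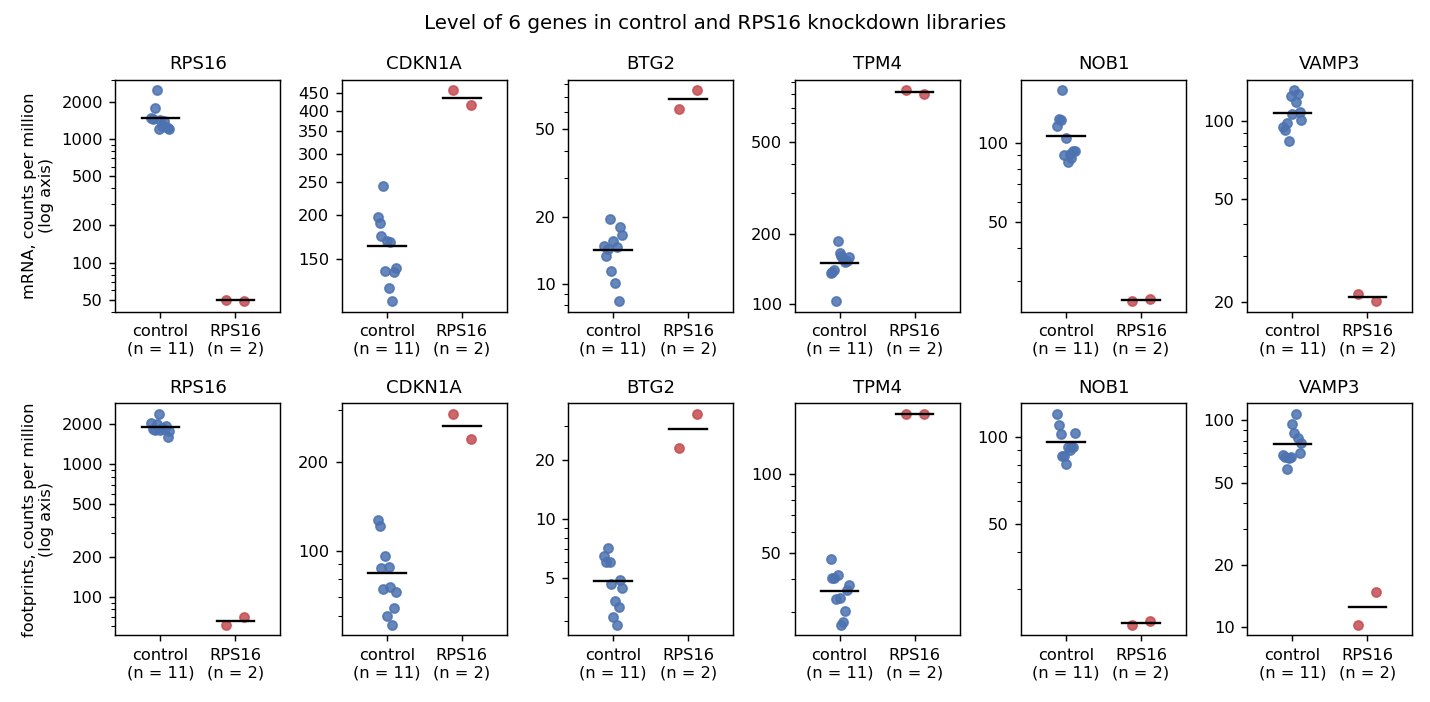
Levels of 6 genes in CPM (log axes that do not start at 0) for mRNA in the upper row and ribosome footprints in the lower row; each point is a library and each bar a group mean, for 11 control and 2 RPS16 knockdown libraries. In all 12 panels the RPS16 points lie outside the control range: below it for RPS16, NOB1 and VAMP3, above it for CDKN1A, BTG2 and TPM4.

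Across the 15449 genes tested, 1056 mRNAs were higher (6.84%) and 1484 lower (9.61%) in the RPS16 lysates than in the controls at an adjusted p below 0.05. In footprints, 1469 of 12617 genes were higher (11.6%) and 1869 lower (14.8%). The median log2 fold change over all genes was -0.03 in both assays. These are edgeR quasi-likelihood tests with Benjamini-Hochberg adjustment, in a fit that shares its estimate of spread across the controls and all knockdowns made in duplicate. The other duplicated knockdowns all lie in the column stretch without RPS16, whereas the RPS16 pair spans different stretches. Their pairs thus hold no spread between stretches, which enters the p values only through the controls and the RPS16 pair. With the RPS16 and control lysates alone 592 mRNAs and 1496 footprint genes passed, and with 1 RPS16 library left out 1173 or 1014 mRNAs and 1686 or 2782 footprint genes passed. In bulk lysates such as these, fewer cells of a type and less RNA per cell cannot be told apart.

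The p53 target genes rose as a group. Of 41 measured members, 30 mRNAs were higher and 2 lower, with a median log2 fold change of 0.90, and 31 were higher and 2 lower in footprints, with a median of 0.93. The median over the list was 0.92 and 0.88 in the RPS16 mRNA libraries against -0.14 to 0.19 in the single controls. Without RPS16 library 1, 20 mRNAs of the list were higher, and without library 2, 24 were. CDKN1A, which encodes the cyclin-dependent kinase inhibitor p21, was at 459 and 416 CPM against 113, 168 and 243 CPM in the controls (log2 fold change 1.42 ± 0.150, adjusted p = 3.16e-08). Its footprints rose alike, from 56.1 to 128 CPM in the controls to 292 and 240 CPM (1.66 ± 0.175). BTG2, an antiproliferative p53 target, had 61.8 and 74.9 CPM of mRNA against 8.34, 14.6 and 19.6 CPM (2.26 ± 0.149, adjusted p = 9.24e-13). XPC, which recognises DNA damage for excision repair, had 86.2 and 80.9 CPM against 22.7, 26.9 and 31.9 CPM (1.63 ± 0.0867). For each of these genes both RPS16 libraries lay above all 11 controls.

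Members of the p53 list with different roles rose too. CYFIP2, a subunit of the actin-regulating WAVE complex, reached 189 and 176 CPM against 62.9 to 88.3 CPM (log2 fold change 1.38). Among death-promoting targets, BBC3 (PUMA) was at 19.5 CPM in each RPS16 library against 4.09 to 10.8 CPM (1.44), FAS at 43.8 and 42.9 CPM against 4.24 to 17.1 CPM (1.76), and SPATA18 at 18 and 15.3 CPM against 2.65 to 6.40 CPM (1.83). BAX passed with a smaller change and touched the control range (276 and 241 CPM against 134 to 276 CPM, 0.64). The 2 mRNAs of the list that fell were the cytokine LIF (-0.79) and the death receptor TNFRSF10A (-0.43). GDF15, a secreted stress cytokine, did not pass in mRNA (log2 fold change -0.41, adjusted p = 0.217) or in footprints (0.02).

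MDM2, a ubiquitin ligase on the same list, was less settled. Its mRNA was at 335 and 423 CPM against 52.9, 236 and 263 CPM, above every control, but the lowest control was far from the others (log2 fold change 0.92 ± 0.289, adjusted p = 0.0251). The mRNA call was lost in 4 alternative settings, among them the column stretch as a term (adjusted p = 0.077) and leaving out RPS16 library 1 or library 2. MDM2 footprints rose from 60.1 to 146 CPM in the controls to 196 and 242 CPM (1.18 ± 0.184, adjusted p = 8.03e-06), a call kept without either library. The 2 ribosomal proteins of the 5S RNP moved little: RPL5 mRNA was slightly lower (-0.27, adjusted p = 0.00556), RPL11 mRNA had a log2 fold change of -0.03 (adjusted p = 0.862), and RPL11 footprints were higher (0.45, adjusted p = 0.000902). MYC mRNA stood at 142 CPM in each RPS16 library, inside the control range of 128 to 230 CPM (adjusted p = 0.148).

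**Figure D2:**
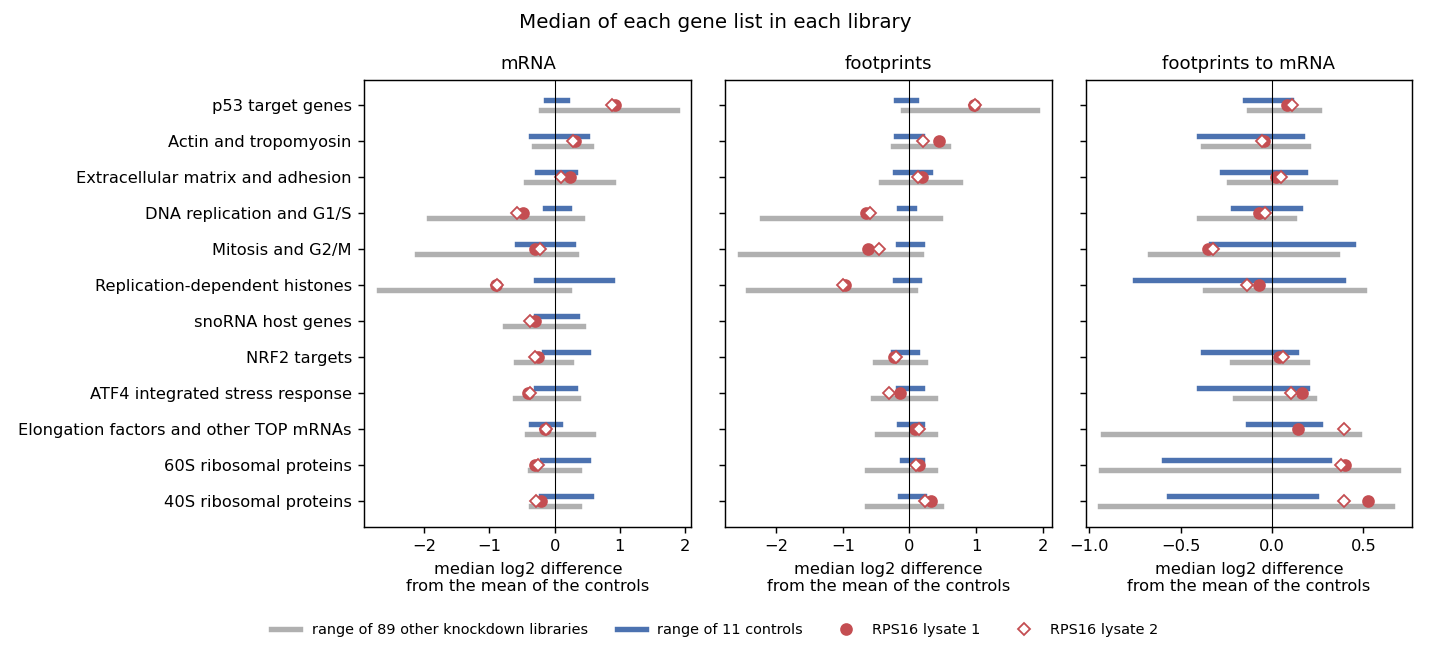
Median log2 difference of each gene list from the mean of the controls, for mRNA, footprints and the ratio of footprints to mRNA. Red symbols are the RPS16 lysates, blue bars the range of the 11 controls and grey bars the range of the 89 other knockdown libraries. The p53 targets lie above and the histones and replication genes below all controls in mRNA and footprints, and both RPS16 lysates lie inside the grey range for every list in every panel.

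Many genes of DNA replication fell. Of 48 DNA replication and G1/S mRNAs, 27 were lower and none higher (median log2 fold change -0.56), and in footprints 32 of 47 were lower and none higher (-0.58). CDC6, which loads the replicative helicase at origins, had 29.9 and 35.7 CPM of mRNA against 79.9, 93.2 and 101 CPM in the controls (-1.49 ± 0.115, adjusted p = 3.85e-11). MCM10 had 24.6 and 28.1 CPM against 39.9 to 71.3 CPM (-1.23), and MCM4, a subunit of that helicase, 127 and 126 CPM against 168 to 246 CPM (-0.75). The RPS16 libraries lay below all controls for each. Footprints fell for ORC1, of the origin recognition complex (13.7 and 17.5 CPM against 40.5 to 56.9 CPM, -1.68), and for DTL, a substrate receptor of the CRL4 ubiquitin ligase (30.3 and 34.2 CPM against 79.0 to 110 CPM, -1.52). With 1 RPS16 library left out, 16 or 11 replication mRNAs were lower.

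Mitotic genes showed fewer mRNA calls than footprint calls. Of 42 measured, 13 mRNAs were lower and none higher (median -0.30), while 33 of 42 were lower in footprints (median -0.55). In the ratio of footprints to mRNA, tested gene by gene, 0 of the 42 were called higher and 0 lower (median -0.32). Whether the numbers of mRNA and footprint calls differ was not tested as such. With 1 RPS16 library left out, 6 or 5 mitotic mRNAs and 19 or 25 in footprints were lower. The list medians of the RPS16 mRNA libraries (-0.30 and -0.22) lay inside the control range of -0.57 to 0.28. Its lower end was control 20_2, which stood apart in RNA-seq, and the next lowest control, 20_1, was at -0.11, above both RPS16 libraries. The medians of the footprint libraries (-0.62 and -0.46) lay below all controls (at least -0.18). PTTG1, which encodes securin, fell in mRNA to 47.2 and 47.5 CPM from 118, 140 and 217 CPM (-1.66 ± 0.150) and in footprints to 73.5 and 74.6 CPM from 181 to 265 CPM (-1.53). CCNA2, cyclin A2, fell in footprints to 63.0 and 55.1 CPM from 146 to 175 CPM (-1.44). ANLN encodes anillin, which organises the contractile ring of cytokinesis. Its footprints dropped to 53.5 and 48.3 CPM from 289, 326 and 366 CPM (-2.66 ± 0.142, adjusted p = 9.29e-16), while its mRNA, at 32.7 and 38.6 CPM, overlapped a wide control range of 29.1 to 171 CPM (-1.75 ± 0.360).

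Replication-dependent histone genes, which are transcribed in S phase, were the list with the greatest share of lower members. In mRNA 32 of 38 measured genes were lower and none higher (median -0.88), and in footprints 36 of 43 (median -1.02). H2BC17 had 128 and 116 CPM of mRNA against 226, 244 and 528 CPM (-1.20 ± 0.206), and H3C10 had 602 and 556 CPM of footprints against 959 to 1274 CPM (-0.98). Histone genes are near-identical copies among which reads may be divided, so the value of a single gene is uncertain. The mRNA calls were also fewer in smaller fits: 5 with the RPS16 and control lysates alone, and 17 or 18 with 1 RPS16 library left out, whereas 34 footprint genes were lower when either library was dropped.

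Among called mRNAs above 60 CPM in the highest control, TPM4 rose most; it encodes a tropomyosin that coats actin filaments. Its mRNA was at 833 and 806 CPM against 103, 154 and 188 CPM (log2 fold change 2.44 ± 0.098, adjusted p = 1.77e-17), and its footprints were at 169 CPM in each RPS16 library against 26.7 to 47.5 CPM (2.23 ± 0.115). The rise was not particular to RPS16: in the 89 other knockdown lysates TPM4 mRNA ranged from 291 to 1087 CPM, all above the controls, and RPS16 did not differ from them (0.28, adjusted p = 0.999). ACTA2, smooth muscle actin, rose to 22.7 and 22.3 CPM from 4.28 to 8.68 CPM (1.78). In all, 5 of 22 actin and tropomyosin mRNAs were higher and none lower, and 8 of 24 in footprints. The list medians of the RPS16 mRNA libraries (0.31 and 0.29) lay inside the control range of -0.36 to 0.50, and those of the footprint libraries (0.44 and 0.21) lay above all controls (at most 0.18). Of 36 genes of the extracellular matrix and adhesion, 9 mRNAs were higher and 1 lower. The medians of this list lay inside the control range in mRNA (0.24 and 0.10 against -0.27 to 0.31) and in footprints (0.19 and 0.12 against -0.21 to 0.31). SDC4, a cell surface proteoglycan, rose to 92.8 and 72.2 CPM from 25.6 to 45.6 CPM (1.23), and CCN1, a secreted matrix protein, to 136 and 118 CPM from 59.2 to 91.8 CPM (0.80) in mRNA and by 1.57 in footprints. With the column stretch as a term these mRNA counts became 11 higher for actin and 14 for matrix genes.

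Several other genes of the naming rule were higher. DIO2, a deiodinase that activates thyroid hormone, had 20.96 and 28.2 CPM of mRNA against 2.36 to 9.497 CPM (2.13), ABCA12, a lipid transporter, 9.44 and 10.97 CPM against 1.21 to 4.69 CPM (1.82), and HABP4 23.8 and 25.8 CPM against 5.43 to 8.35 CPM (1.85). BSN, a presynaptic scaffold, had 7.70 and 8.55 CPM against 1.25 to 2.96 CPM (2.10), and GRIP2 5.76 and 6.16 CPM against 0.845 to 2.201 CPM (2.08). In footprints, BICD2, a dynein adaptor, reached 56.7 and 46.3 CPM from 7.43 to 15.3 CPM (2.30 ± 0.131), and PCNX3 42.8 and 32.5 CPM from 3.91 to 13.1 CPM (2.26). The remaining footprint increases by size (SLC52A1, ZSCAN29, DNAI3, ELFN2, ZNF845, FLRT2, OSBPL5) were of genes at or below 4.00 CPM in every control, with log2 fold changes of 2.27 to 3.29.

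VAMP3, a vesicle SNARE of the endosomal recycling route, had the greatest decrease after RPS16 among the mRNAs that met the rule for naming (at least 5 CPM and no overlap with the controls). It was at 21.5 and 20.1 CPM against 83.4, 107 and 131 CPM (log2 fold change -2.37 ± 0.147, adjusted p = 2.02e-13), and its footprints were at 10.3 and 14.9 CPM against 58.4 to 107 CPM (-2.61). NOB1, the endonuclease that makes the final cut at the 3′ end of 18S ribosomal RNA in the pre-40S particle, was at 25.1 and 25.7 CPM against 84.9, 93.8 and 159 CPM (-2.07 ± 0.173). NOB1 footprints were at 22.6 and 23.4 CPM against 80.5 to 119 CPM (-2.06 ± 0.137). Both assays put these genes below all controls in both lysates. TIMP2, a metalloproteinase inhibitor, fell in mRNA to 127 and 104 CPM from 430, 472 and 588 CPM (-2.08). EIF4EBP2, a repressor that binds the cap-binding protein eIF4E, fell to 44.6 and 49.4 CPM from 164, 196 and 228 CPM (-2.05). QDPR, which recycles tetrahydrobiopterin, fell to 10.48 and 10.3 CPM from 33.9 to 58.0 CPM (-2.09), and GPAT3, of glycerolipid synthesis, to 17.1 and 18.7 CPM from 60.7 to 95.8 CPM (-2.07). FTH1P20, a ferritin pseudogene that may take reads of its parent gene, is uncertain (-2.13).

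Assembly factors of the ribosome did not move as a group apart from NOB1. Of 63 mRNAs for 40S biogenesis factors, 2 were higher and 5 lower (median -0.01), and in footprints 4 of 64 were higher and 14 lower (median -0.05). Among the latter, PNO1, which sits beside NOB1 on the pre-40S platform, had 88.7 and 120 CPM of footprints against 149 to 230 CPM (-0.82), and WDR36, of the early nucleolar processome, 89.8 and 105 CPM against 130 to 212 CPM (-0.81). Without RPS16 library 1, 6 of the 64 were lower in footprints, and without library 2, 12 were. The 60S biogenesis factors had 2 mRNAs higher and 2 lower of 49, and 4 higher and 8 lower in footprints. DDX18, an RNA helicase of 60S assembly, was the clearest (82.0 and 112 CPM of footprints against 159 to 227 CPM, -0.94). Hosts of small nucleolar RNAs had 8 of 18 mRNAs lower and none higher (median -0.34). SNHG5, a non-coding host with a TOP-type start, was at 46.9 and 43.6 CPM against 68.5 to 132 CPM (-1.21). Without RPS16 library 1, 6 hosts were lower, and without library 2, 2 were.

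Metabolic and stress genes changed in part. ATF4, the transcription factor of the integrated stress response, had 183 and 201 CPM of mRNA against 346, 465 and 617 CPM (-1.21 ± 0.141, adjusted p = 1.76e-07), and 5.36 and 10.8 CPM of footprints on its coding sequence against 14.6 to 20.3 CPM (-1.10). Of the 31 measured mRNAs in the ATF4 list, 9 were lower and 1 higher (median -0.41), among them the arginine transporter SLC7A1 (-0.54) and VEGFA (-0.68). MTHFD2, a folate enzyme of mitochondria, was lower in footprints (130 and 141 CPM against 220 to 398 CPM, -1.06). A549 cells carry a mutant KEAP1 and hold NRF2 targets high. Of 32 such mRNAs, 12 were lower and 3 higher (median -0.35), with AKR1C3, an aldo-keto reductase, at 290 and 286 CPM against 469, 671 and 992 CPM (-1.24) and SRXN1, sulfiredoxin, at 267 and 240 CPM against 401 to 583 CPM (-0.99). The number of lower mRNAs was 6 for NRF2 targets when either RPS16 library was left out, and 4 or 3 for the ATF4 list. Sterol synthesis genes had 4 of 30 mRNAs lower and none higher, and 10 lower and 2 higher in footprints (6 lower when either RPS16 library was left out). Over all genes 9.61% of mRNAs and 14.8% of footprint genes were lower. The sterol list medians of the RPS16 mRNA libraries (-0.05 and -0.22) lay inside the control range of -0.24 to 0.62. Those of the footprint libraries (-0.15 and -0.16) lay below all controls (at least -0.07). MSMO1, of the cholesterol pathway, had footprints of 47.2 and 56.8 CPM against 101.97 to 321 CPM (-1.87).

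Other lists were close to the background share or mixed. Aminoacyl-tRNA synthetases had 1 mRNA higher and 3 lower of 23, led by KARS1, the lysine enzyme (81.3 and 84.2 CPM against 140, 143 and 158 CPM, -0.80 ± 0.0676). Nuclear-encoded subunits of oxidative phosphorylation had 4 higher and 1 lower of 44: NDUFV2, a core subunit of complex I, fell to 33.3 and 33.03 CPM from 58.7 to 77.0 CPM (-1.01). Mitochondrial ribosomal proteins had 2 higher and 7 lower of 53, led by MRPS18B (41.9 and 41.4 CPM against 69.2 to 160 CPM, -1.15). Initiation factors had 2 higher and 6 lower of 43, lysosome and autophagy genes 4 and 4 of 35, mTORC1 and LARP1 axis genes 4 and 3 of 24, apoptosis regulators 3 and 3 of 24, and interferon genes 3 and 1 of 25. The median of the 13 mitochondrially encoded mRNAs turned from 0.32 to -0.22 with the column stretch as a term.

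Of the ribosomal proteins other than RPS16, some fell in mRNA and some rose in footprints, while most passed in neither. Among 33 other 40S proteins, 5 mRNAs were lower and none higher, and 4 of the 33 log2 fold changes were positive. For the 40S list with RPS16 the mRNA median of RPS16 library 1 (-0.20) lay inside the control range, whose lowest value was -0.21, and the median fold change went from -0.24 to -0.13 with the column stretch as a term. In footprints 11 of 31 were higher and 2 lower (median 0.27), and 24 were positive. Of the 47 60S proteins, 13 mRNAs were lower and none higher, and 9 were higher and 2 lower in footprints. Over all genes 9.61% of mRNAs were lower, and 11.6% were higher and 14.8% lower in footprints. The 60S footprint medians of the RPS16 libraries (0.14 and 0.10) lay inside the control range of -0.11 to 0.18. The 60S mRNA medians (-0.30 and -0.25) lay below all controls (at least -0.19). The footprint medians of the 40S list with RPS16 (0.32 and 0.24) lay above all controls (at most 0.22). With RPS16 library 1 or 2 left out, 5 or 8 of the 40S set and 3 or 4 of the 60S set were higher in footprints, and 8 or 5 mRNAs of the 60S set were lower. RPS19, a 40S protein mutated in Diamond-Blackfan anaemia, had 4538 and 4247 CPM of footprints against 2438, 2879 and 3179 CPM (0.63 ± 0.083, adjusted p = 5.17e-07). RPL14 fell in both assays, with 126 and 141 CPM of mRNA against 189, 225 and 251 CPM (-0.72 ± 0.0972) and 90.3 and 109 CPM of footprints against 161, 193 and 236 CPM (-0.97 ± 0.116). Ribosomal protein genes have many processed pseudogenes, among which reads of the parent genes can be divided. Of the paralogs, RPL26L1 mRNA rose to 30.5 and 32.5 CPM from 12.3 to 19.6 CPM (0.92) and RPS27L, a p53 target, to 236 and 256 CPM from 64.0 to 164 CPM (1.02).

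The ratio of footprints to mRNA within a lysate reports footprints per unit of mRNA. Among 12333 genes, 54 ratios were higher (0.438%) and 58 lower (0.470%), from the assay by group interaction in edgeR with a term for each lysate. Of 31 40S proteins other than RPS16, 8 were higher and none lower, and 27 log2 changes were positive (median 0.49, range -0.44 to 1.36, against -0.05 over all genes). Of 47 60S proteins, 5 were higher and none lower, and 40 were positive (median 0.41). Of 21 elongation factors and other TOP mRNAs, 6 were higher and none lower, and 16 were positive (median 0.31). The median of the 40S list in single lysates was 0.53 and 0.39 for RPS16 and -0.56 to 0.24 in the controls. The 4 lowest of those controls were those of the stretch without RPS16. Within the stretches the 40S median exceeded that of the controls by 0.42 for lysate 1 and 0.30 for lysate 2, and the 60S median by 0.25 and 0.35. For the elongation factor and TOP list the lysate medians, 0.14 and 0.40, overlapped the control range of -0.13 to 0.26 in lysate 1. Its median fold change went from 0.31 to 0.17 with the column stretch as a term, and was 0.21 within each stretch.

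The promoter ends of 6 of these genes are shown because a TOP mRNA is defined by its first bases. Each line holds the 30 bases before the annotated start and the first 10 bases from it, read 5′ to 3′ on the gene's strand from RefSeq on GRCh38.p14. Capitals mark the tract searched for, a C followed by at least 4 pyrimidines (C or T), whose first base lies within 5 bases of the start, here cut at the end of the window.
RPS16, chr19:39435940-39435979, minus strand: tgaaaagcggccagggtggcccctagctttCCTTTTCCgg
RPL13A, chr19:49487578-49487617, plus strand: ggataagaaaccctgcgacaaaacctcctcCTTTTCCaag
RPL28, chr19:55385902-55385941, plus strand: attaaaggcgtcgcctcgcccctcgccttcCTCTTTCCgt
TPT1, chr13:45341174-45341213, minus strand: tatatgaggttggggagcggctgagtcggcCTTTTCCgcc
RPS3, chr11:75399488-75399527, plus strand: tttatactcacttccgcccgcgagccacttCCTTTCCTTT
EIF3F, chr11:7987307-7987346, plus strand: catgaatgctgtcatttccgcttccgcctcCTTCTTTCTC

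In all 6 the match nearest to the annotated start, which the search took, lay at the start itself. The base before the start is C or T in all 6, so the run of pyrimidines reaches further upstream. The tract was found in 23 of 27 40S protein promoters matched by symbol (85.2%), in 30 of 38 for the 60S (78.9%), in 11 of 14 of the elongation factor and TOP list (78.6%), in 3 of 31 p53 targets (9.68%) and in 20.99% of all 27305 promoters. Among tested genes with a matched promoter, 10 of 52 ribosomal protein genes with the tract had a higher ratio and none a lower one (median 0.43), as had 2 of 11 without it (median 0.40). Among the 2183 other genes with the tract, 13 ratios were higher and 9 lower (median -0.04), and among 7586 without it 22 were higher and 38 lower (median -0.06). The tract thus occurred in most ribosomal protein promoters. The other genes include elongation and initiation factors, and whether the tract goes with the ratio was not tested. These letters are a description of the annotated starts only.

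RPL13A, a 60S protein with the tract CTTTTCC above, had the clearest ratio among these. Its log2 ratio was -2.42 and -2.40 in the RPS16 lysates against -4.46, -3.67 and -3.33 in the controls (change 1.27 ± 0.196, adjusted p = 0.000699). Its mRNA was lower (-0.95) and its footprints slightly higher (0.36). RPS6, the 40S protein phosphorylated by S6 kinase, had log2 ratios of 0.81 and 0.60 against -0.45, -0.07 and 0.19 (0.82 ± 0.131, adjusted p = 0.00085). RPL4 had -0.72 and -0.70 against -1.74, -1.43 and -1.18 (0.71 ± 0.115). EEF1G, a subunit of the elongation factor that recharges eEF1A, had -2.14 and -2.31 against -3.73, -3.03 and -2.85 (0.86 ± 0.143). EIF3F, of the initiation factor that binds the 40S subunit, had 0.12 and 0.01 against -1.84, -0.63 and -0.47 (0.92 ± 0.208), with footprints of 177 and 158 CPM against 60.5 to 92.9 CPM. In all 5 cases both lysates lay above all controls.

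**Figure D3:**
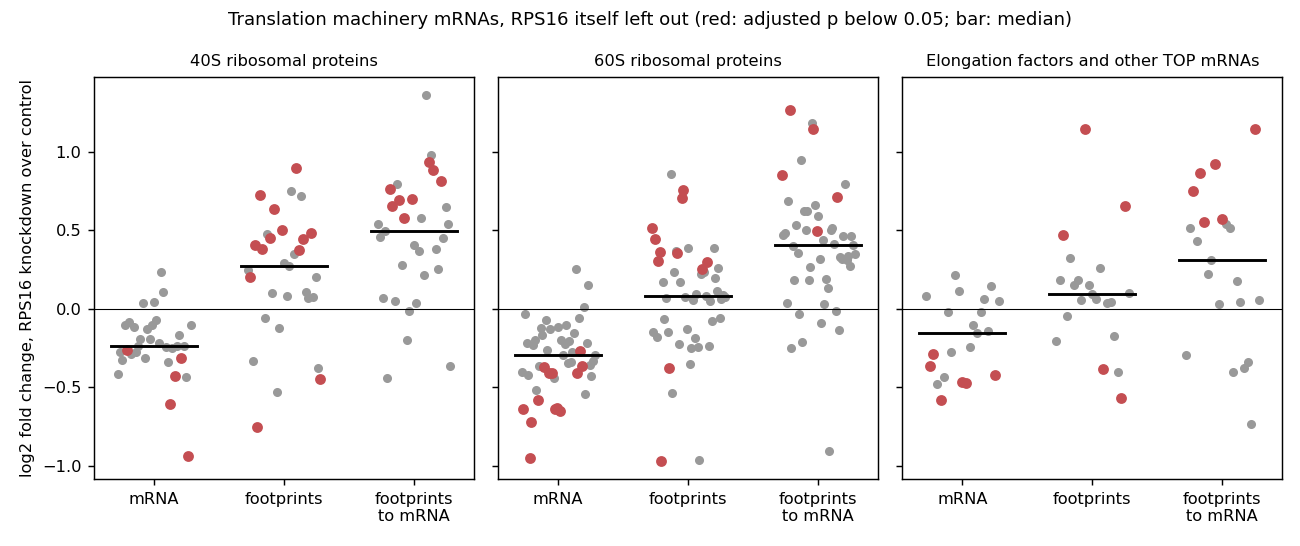
Log2 fold change, RPS16 knockdown over control, of each 40S protein, 60S protein and elongation factor or other TOP gene, in mRNA, footprints and their ratio, with RPS16 left out. Each point is a gene, red where the adjusted p is below 0.05, and the bar is the median. The bars lie below 0 for mRNA and above 0 for the ratio in all 3 sets.

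The ratio calls rest on few lysates. Lysate 1 showed the greater change for 39 of the 54 higher genes (median 0.96 against 0.77 in lysate 2) and for 40 of the 58 lower genes (median -1.38 against -1.04). Lysate 2 had the same sign for all 112, but both lysates entered the calls, so this agreement is not separate support. Without lysate 1, 4 genes passed, 2 of them among the 112, and none of the 19 ribosomal protein and TOP-list ratios called above did. RPL13A then had an adjusted p of 0.0717. Without lysate 2, 293 genes passed, 59 of them among the 112, and 3 genes of each of the 3 translation lists were called. With the RPS16 and control lysates alone no ratio passed with edgeR (668 genes had an unadjusted p below 0.05). Without control 20_2, 185 ratios passed, among them all 112.

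**Figure D4:**
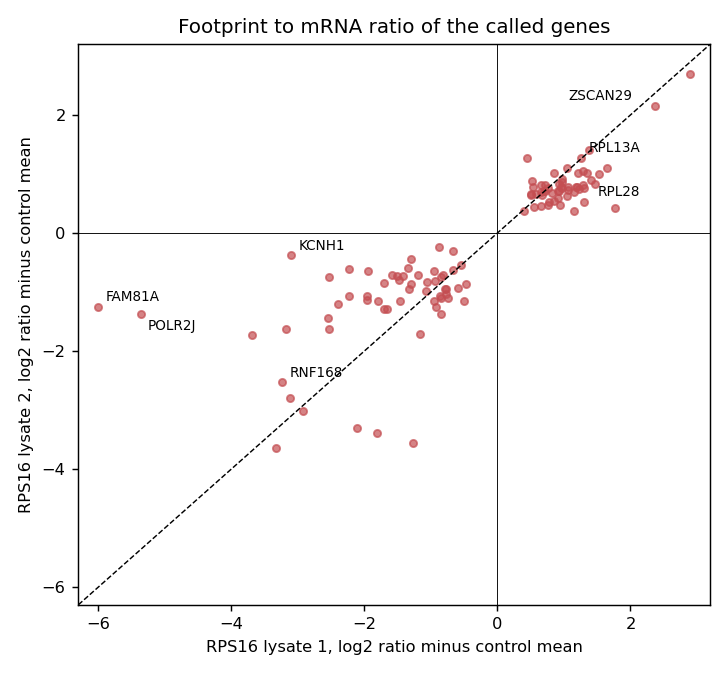
Log2 ratio of footprints to mRNA minus the control mean in RPS16 lysate 1 (horizontal) and lysate 2 (vertical) for the 112 genes with a called ratio; the dashed line marks equal values. All points have the same sign in both lysates, which the choice of genes favours because both lysates entered the calls. FAM81A, POLR2J and KCNH1 lie far to the left, with few or no footprints in lysate 1. The ratios come from log2 CPM with a prior count of 2, so the place of a gene with no footprint depends on that number.

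Of the lower ratios, that of RNF168 was called with either lysate left out. RNF168 is the ubiquitin ligase that marks histone H2A around DNA breaks. Its footprints were at 0.335 and 0.561 CPM against 10.2, 13.5 and 17.5 CPM, and its mRNA was at 11.1 and 10.495 CPM against 15.5 to 46.4 CPM. The log2 ratio was -4.75 and -4.04 against -2.07 to -0.11 (change -3.00 ± 0.381, adjusted p = 3.8e-05, and 0.0182 or 0.000557 without lysate 1 or 2). Both its mRNA (-1.89) and, more strongly, its footprints (-4.87) were therefore lower in both lysates. Some low ratios were of genes with few footprints in library 1. FAM81A had no footprint there and 2.21 CPM in library 2, against 3.00 to 9.35 CPM, POLR2J 0.0478 and 2.47 CPM against 4.19 to 11.8 CPM, and KCNH1 0.670 and 4.22 CPM against 5.68 to 10.8 CPM. Library 1 was far below the controls for each, and library 2 only a little below. POLR2J has near-identical copies, which makes its value uncertain. The higher ratios of SYS1-DBNDD2 (1.19) and RAB4B-EGLN2 (1.07) belong to read-through genes that overlap others and are uncertain too, the strand of counting not being stated in the sources used here. ZSCAN29, a zinc finger protein, had the greatest increase among genes that reached 5 CPM in both assays (log2 ratio -1.79 and -2.01 against -8.04, -3.82 and -2.74, 2.07 ± 0.489), which fell short without lysate 1 (adjusted p = 0.479) and without lysate 2 (adjusted p = 0.0804). Below that level, BMF had a larger change (2.84, adjusted p = 0.0041), with footprints of 1.44 and 1.48 CPM inside the control range.

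Set against the 89 lysates with another ribosomal protein knocked down, RPS16 differed in few genes, and mostly downward. In mRNA 155 genes were lower (1.00%) and 12 higher (0.0777%), and in footprints 216 were lower (1.71%) and 7 higher (0.0555%). Of the 155, 108 lay below every one of the 89 libraries in both RPS16 libraries, and 152 were also lower than in the controls. The 155 were chosen by their difference from these 89 libraries, and both comparisons share the RPS16 libraries. These counts therefore describe the chosen genes and are not separate support. In all, 97 genes were lower than in the other knockdowns in both assays. When either RPS16 library was left out 39 of the mRNAs remained, and 40 or 97 of the footprint genes. The p53 list had no mRNA called in this comparison (median -0.14), and in the other knockdowns its library median ran from -0.21 to 1.87, so the RPS16 medians of 0.92 and 0.88 stood near the middle of that range (other median 0.97). No member of the replication, mitosis or histone lists was called in mRNA either. The 40S and 60S protein lists had no ratio called (medians of the difference 0.57 and 0.47). Over all genes only 0.178% of ratios were lower and 0.00811% higher, so no call in lists of this size says little. In the 40S ratio median 78 of the 89 other libraries lay below both RPS16 lysates and 6 above both. In the 60S ratio median these numbers were 77 and 12.

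Genes lower than in the other knockdowns included the strongest decreases against control. VAMP3 mRNA ranged from 31.6 to 155 CPM in the other knockdowns, above both RPS16 values of 21.5 and 20.1 CPM (log2 difference -2.34, adjusted p = 7.52e-06). NOB1 ranged from 42.7 to 153 CPM against 25.1 and 25.7 CPM (-1.95, adjusted p = 5.01e-09). P4HA2, a prolyl hydroxylase of collagen, was at 11.6 and 6.64 CPM against 17.5 to 69.1 CPM (-2.32), with footprints of 19.4 and 20.8 CPM against 51.5 to 165 CPM (-2.62, adjusted p = 7.47e-16). These ranges did not meet. IFT20, of intraflagellar and Golgi transport, was at 3.97 and 3.80 CPM against 5.42 to 23.8 CPM (-2.08), and RNF182, a ubiquitin ligase, at 5.36 and 4.05 CPM against 5.56 to 42.9 CPM (-2.10). QDPR was at 10.48 and 10.3 CPM against 18.9 to 64.4 CPM (-1.90). KARS1 was at 81.3 and 84.2 CPM against 131 to 259 CPM (-1.17, adjusted p = 8.75e-11), and NDUFV2 at 33.3 and 33.03 CPM against 50.8 to 98.0 CPM (-1.07, adjusted p = 5.02e-09). TIMP2, at 127 and 104 CPM against 122 to 612 CPM, overlapped the lowest of the other libraries (-1.84, adjusted p = 9.52e-05). AKR1C3, of the NRF2 list, was at 290 and 286 CPM against 385 to 1248 CPM (-1.37, adjusted p = 0.00141).

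**Figure D5:**
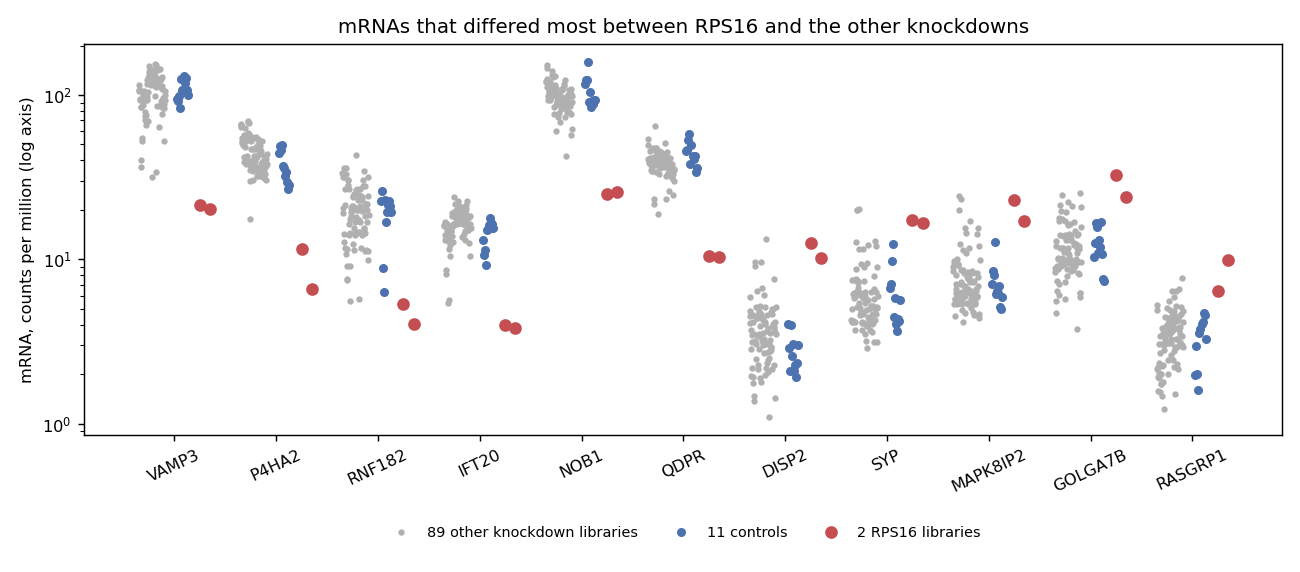
mRNA levels in CPM (log axis) of 11 genes that differed between the RPS16 libraries (red, n = 2), the 89 other knockdown libraries (grey) and the 11 controls (blue). For VAMP3, P4HA2, IFT20, NOB1 and QDPR both red points lie below all grey and blue points, while for DISP2, SYP, MAPK8IP2 and GOLGA7B the red points lie above the controls.

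Footprint genes with a mean of at least 5 CPM in the RPS16 or the control libraries were ranked by their difference from the other knockdowns. After RPS16 itself (log2 difference -4.83), RNF168 showed the most negative one: 0.335 and 0.561 CPM against 2.53 to 18.8 CPM (log2 difference -4.46, adjusted p = 2.74e-10). DPY19L3, a mannosyltransferase, had 3.64 and 2.18 CPM against 2.79 to 36.5 CPM (-2.64, adjusted p = 0.0011). ANLN footprints were below all of them too (53.5 and 48.3 CPM against 66.0 to 454 CPM, -1.90, adjusted p = 0.0376), and RPL14 footprints, whose comparison included the lysate that targets RPL14, were lower as well (-1.15, adjusted p = 0.0133). DUSP7, an ERK phosphatase, had 0 reads in library 1 and 0.693 CPM in library 2 against 0.935 to 11.9 CPM. A count of 0 in library 1 allows up to 0.142 CPM (3 counts). For the ratio 22 genes were lower (0.178%) and 1 higher (0.00811%). The higher one was SLC19A3, a thiamine transporter (0.92, adjusted p = 0.0195), and 9 of the 22 were also lower than in the controls. None of the 23 was called without lysate 1, and 20 of the 22 were without lysate 2. ARHGAP42, FAM81A and POLR2J, with 0 or nearly 0 footprints in library 1, led the 22.

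Few genes were higher than in the other knockdowns. In mRNA these were led by DISP2 (12.6 and 10.2 CPM against 1.10, 3.57 and 13.3 CPM, log2 difference 1.55, adjusted p = 0.00718), a relative of the Hedgehog-releasing protein Dispatched. SYP, the synaptic vesicle protein synaptophysin, had 17.2 and 16.6 CPM against 2.90, 5.15 and 20.4 CPM (1.42, adjusted p = 0.0282), and its footprints were 21 and 16.2 CPM against 0.374, 4.92 and 17.5 CPM (1.68, adjusted p = 0.00559). MAPK8IP2, a scaffold of JNK signalling, had 23.1 and 17.1 CPM against 4.13 to 24.3 CPM (1.33). GOLGA7B (1.27) and RASGRP1, a Ras exchange factor (1.24), followed. For DISP2, SYP and MAPK8IP2 mRNA the highest other library reached above both RPS16 libraries, while 6 of the 12 higher mRNAs and 6 of the 7 higher footprint genes lay above all 89. These genes too were chosen by their difference from the same 89 libraries. None of the 12 higher mRNAs was called when either RPS16 library was left out.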

How the data were processed

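The authors deposited 1 table of whole-number counts per assay, with a row per Ensembl gene and 102 libraries; by the names of the deposited tables, reads were counted on exons in RNA-seq and on coding sequence in Ribo-seq. Per the submitters' processing notes, the build was GRCh38 and the tools were STAR 2.6.1, cutadapt 1.8.1 and bcl2fastq 2.20.0.422. Annotation, counter and strand setting: not given in the sources used here. Counts were scaled by TMM over all libraries and printed as CPM, so levels of different genes are not per length. A gene was tested if 2 or more of the 13 RPS16 and control libraries reached 1 CPM. The test was that of edgeR 4.0.16 (quasi-likelihood, R 4.3.3) over 43 libraries: the controls and 16 targets with 2 libraries each, with 1 mean per target. The ratio was tested as an interaction of assay and group with a term per lysate, because both assays share a lysate. Over 8471 genes the deviations of the RNA-seq and Ribo-seq libraries of 1 lysate from their group means correlated with a median r of 0.264 (above 0.1 in 72.1% of 43 lysates). The lysates of a target with 2 libraries share a single r (0.304 for both RPS16 lysates), so the 43 values are not independent. The other knockdowns were compared in a fit of 3 groups over all 102 libraries, for the ratio with limma 3.58.1. Ratios per lysate are differences of edgeR log2 CPM with a prior count of 2, and mRNA or footprint list values per library used log2(CPM + 0.5). Symbols came from a gene name table (31346 of 41379 RNA-seq and 18756 of 19217 Ribo-seq IDs).

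Named genes were the 10 greatest changes in each direction with at least 5 CPM and no overlap with the controls, the 3 smallest p in each of the lists with at least 3 calls, the 5 greatest against the other knockdowns, and RPS16, CDKN1A, MDM2 and MYC. Others (such as FAS, BAX, LIF, GDF15, RPL5 and RPL11) were added once their values were known, and some genes that the rule names are not reported here. The members and the gene lists were chosen with earlier results of these data known. The fits were tested on simulated counts, which had the same spread for every gene and no effect of column stretch or lysate. How the fits behave with such effects was not tested. The 2 RPS16 libraries differed by more than sampling noise (chi-square per degree of freedom 24.4 in RNA-seq and 33.4 in Ribo-seq). They lie in different column stretches, and the value was 3.47 and 9.41 for the pair of control 21, which share 1.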

Additional observations from a re-analysis of the deposited data

How the results depend on the processing

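No call of a named gene reversed. Medians of lists could change sign with the column stretch as a term, as that of the mitochondrially encoded mRNAs did (0.32 to -0.22). Against control, the number of mRNAs called was 2540, and 592 with the RPS16 and control lysates alone, 4565 with the title set as a term, and 4607 with the 7 controls of the stretches that hold RPS16 (an alternative chosen after seeing the data). It was 1014 to 3547 with 1 lysate left out, lowest without RPS16 lysate 2 and highest without control 20_2. Footprint calls were 3338, and 1496 with those lysates alone, and 1686 to 3529 with 1 lysate left out. DESeq2 1.42.0 called 2827 and 3632. Ratio calls were 112, and 215 with the 7 controls, 179 with limma on the ratio, 650 with the title set, 0 with the RPS16 and control lysates alone, and 4 to 293 with 1 lysate left out (185 without control 20_2). With no replicate block, that is without pairing the assays by lysate, 68 ratios were called. Against the other knockdowns, 167 mRNAs became 256 and 223 footprint genes became 371 with the column stretch as a term, and 23 ratios became 35 against small-subunit knockdowns alone. Leaving out an RPS16 library gave 39 to 39 mRNAs, 40 to 147 footprint genes and 0 to 78 ratios. RPS16 mRNA left was 3.35%, 3.89% against controls of the same stretch and 3.07% against those with numbered titles. Of the named genes, 27 or 33 of 130 mRNA calls and 28 or 18 of 159 footprint calls were lost without RPS16 library 1 or 2. Of 36 ratio calls, 35 or 8 were lost. With the RPS16 and control lysates alone, 52 of 130 mRNA calls, 26 of 159 footprint calls and all 36 ratio calls of named genes were lost. The cause of these shifts was not tested. With 2 lysates, 1 per stretch, the spread of RPS16 is estimated from few samples. A count of 0 in footprint library 1 allows up to 0.142 CPM.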
